A study of Mus musculus with 2 samples.

Results

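The interferon-inducible GTPases are a set of genes named by symbol: Iigp1, Tgtp1, Igtp, Ifi47 and Irgm1 of the immunity-related GTPase (IRG) family, Gbp2 and Gbp3 of the guanylate-binding proteins, and Mx1 and Mx2. Of these 9 genes, 6 had a probe with that single symbol, among 4331 measured genes in all. Gbp3, Mx1 and Mx2 had none and are not described further. The set was chosen by gene symbol after the ratios of Iigp1 and Tgtp1 on these arrays were known, so the values below are a description and support no test. RNA came from splenic alpha beta T cells, sorted as CD4+ with magnetic beads and a cell sorter, from LatY136F mice and from wildtype mice. LatY136F mice carry phenylalanine in place of a tyrosine of Lat, the adaptor that links the T cell receptor to its signalling cascades. The labels give no age, strain or number of mice. Both RNAs were hybridised together on each of 2 arrays with the dyes reversed, which makes 1 biological comparison.

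Interferons bind surface receptors whose Janus kinases phosphorylate STAT proteins, and the STAT dimers or complexes then switch on interferon-stimulated genes. Among the DNA elements through which interferons act on their target genes are the gamma-activated sequence (GAS) and the interferon-stimulated response element (ISRE). The IRG and guanylate-binding proteins are among the strongest targets in mouse cells: they bind GTP, gather on the vacuoles of intracellular parasites such as Toxoplasma and help to break them open. Effector IRG proteins (Iigp1, Tgtp1 and Ifi47) load onto the vacuole, while regulatory ones (Igtp, Irgm1 and Irgm2) sit on the cell's own membranes and hold the effectors inactive there.

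Values are log2 ratios of LatY136F over wildtype, so -1 is 2-fold lower in LatY136F cells. The deposited numbers were read as log10 ratios, because the highest on array 1 is exactly 2, a 100-fold limit on that scale. The direction is the likely one and is not stated in the sources used here. It rests on reading each deposited column as channel 2 over channel 1, and on Gata3. The deposited columns had a negative correlation (Pearson r = -0.21 and Spearman rho = -0.06 over 8014 probes). That correlation bears only on reversing 1 array against the other, because it is the same whichever genotype is on top. The rank correlation is close to 0, and after array 2 was reversed 55.8% of genes had ratios of one sign. Gata3, the transcription factor that drives T helper 2 cells, is known to be high in LatY136F T cells and came out 7.63-fold higher here. If the direction is the opposite one, every "lower" below becomes "higher". The table holds no signal intensities, so how bright each probe was is unknown, and precision is limited by how few arrays there are. After each ±, the number is 0.5 times the gap between the arrays. That gap holds no spread between animals, and no p-value is given.

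In LatY136F cells, 5 of the 6 measured GTPase genes gave ratios below 0 on both arrays, and the sixth, Gbp2, had opposite signs. Iigp1 stood lowest at -1.52 ± 0.25 (2.88-fold lower), followed by Tgtp1 at -1.07 ± 0.07 (2.10-fold lower). Igtp averaged -0.71 ± 0.06, Ifi47 -0.65 ± 0.07 and Irgm1 -0.38 ± 0.05. A gene was called when both arrays put it 2-fold or more away from equal levels, in 1 direction: Iigp1 and Tgtp1 were called lower and none of the 6 was called higher. Over all genes, 0.970% were called lower and 4.20% higher, and 25.5% were below 0 on both arrays. These shares are printed as background only, because the set was chosen from the same ratios. In RNA from sorted cells, fewer cells of a type and less RNA per cell cannot be told apart.

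**Figure D1:**
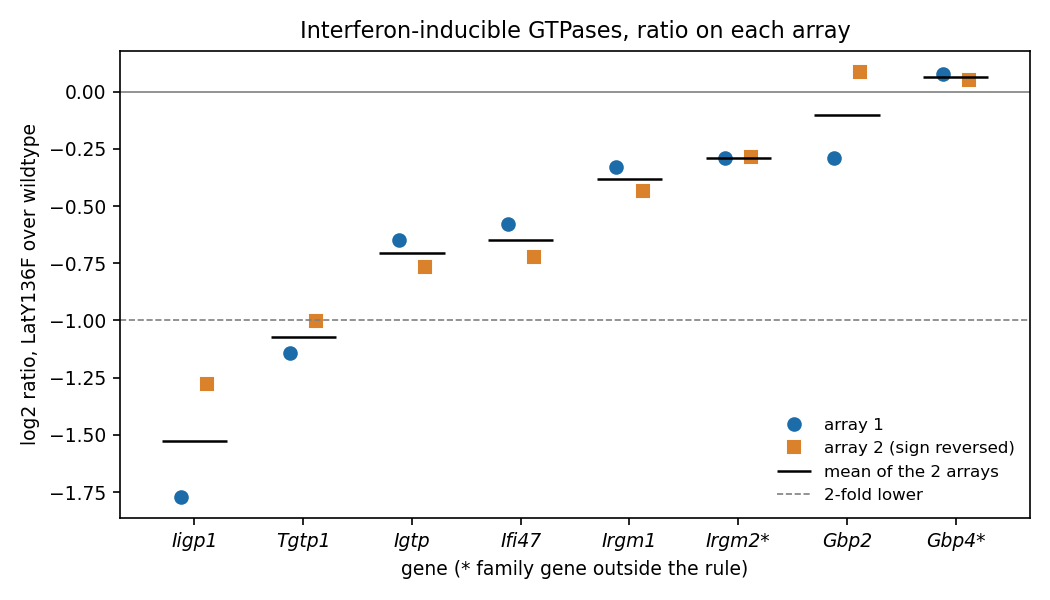
Log2 ratio of LatY136F over wildtype for each GTPase gene on array 1 (circles) and array 2 after its sign was reversed (squares), with the mean as a bar; asterisks mark family genes outside the set. The IRG genes run from -1.52 for Iigp1 to -0.29 for Irgm2, and the guanylate-binding protein genes Gbp2 and Gbp4 lie near 0.

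Among the effectors, Iigp1, a GTPase that coats the vacuoles of Toxoplasma and Chlamydia, had -1.77 on array 1 and -1.28 on array 2. It was 3.41-fold and 2.43-fold lower on the arrays, and its mean was the 25th lowest of 4331. Tgtp1, first cloned as a GTPase of T cells, had -1.14 on array 1 and -1.004 on array 2. Its ratio on array 2, 2.01-fold, was only just past the threshold, and its mean ranked 47th from the bottom. The probe may also bind RNA of Tgtp2, a near-identical neighbour of Tgtp1, so the ratio cannot be given to one of the pair with certainty. Ifi47, the remaining measured effector, had -0.58 on array 1 and -0.72 on array 2. On array 1 it was 1.49-fold lower, just outside a 1.5-fold limit.

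Among the regulators, Igtp, which restrains effector IRG proteins and is needed in mice for resistance to Toxoplasma, had -0.65 on array 1 and -0.76 on array 2. At 1.57-fold and 1.70-fold lower it was past 1.5-fold on both arrays, like Iigp1 and Tgtp1. Over all genes, 2.93% were past 1.5-fold lower on both arrays and 7.83% past 1.5-fold higher. Irgm1, a regulator tied to resistance against mycobacteria and to the survival of activated T cells, had -0.33 on array 1 and -0.44 on array 2. Irgm2, the third regulator and not in the chosen set, had -0.29 on each array. The 3 effectors ranged between -1.52 and -0.65 with a median of -1.07, and the 3 regulators between -0.71 and -0.29 with a median of -0.38. The ranges overlap, because the mean of Igtp lay below that of Ifi47, and the difference between the roles was not tested.

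The guanylate-binding protein genes gave ratios near 0. Gbp2, which acts on parasite and bacterial vacuoles, had -0.29 on array 1 and 0.09 on array 2, so it has no direction here. Gbp4, a relative outside the chosen set, had 0.08 on array 1 and 0.05 on array 2. Counting Irgm2, all 6 measured IRG genes were below 0 on both arrays with a median of -0.68, while the 2 guanylate-binding protein genes had a median of -0.02. Whether the families differ was not tested, since 1 biological comparison allows no test and both families are small.

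In the order of the means, Iigp1, Tgtp1 and Igtp did not overlap with one another between the arrays. Igtp lay below Ifi47 on each array, but the ranges of the pair over the arrays overlapped, so their order is not settled. Ifi47 and Irgm1 did not overlap, and Irgm1 and Irgm2 were separated by only 0.10 on the log2 scale. Irgm2 overlapped with Gbp2, and Gbp2 with Gbp4. The 2 arrays gave close values for most of these genes: 0.5 times their difference was between 0.05 and 0.25 for the 6 members, against a median of 0.15 over all genes. Tgtp1, Igtp, Ifi47 and Irgm1 lay under that median, and Iigp1 and Gbp2 above it. None of these probes had a deposited value of exactly 0.

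**Figure D2:**
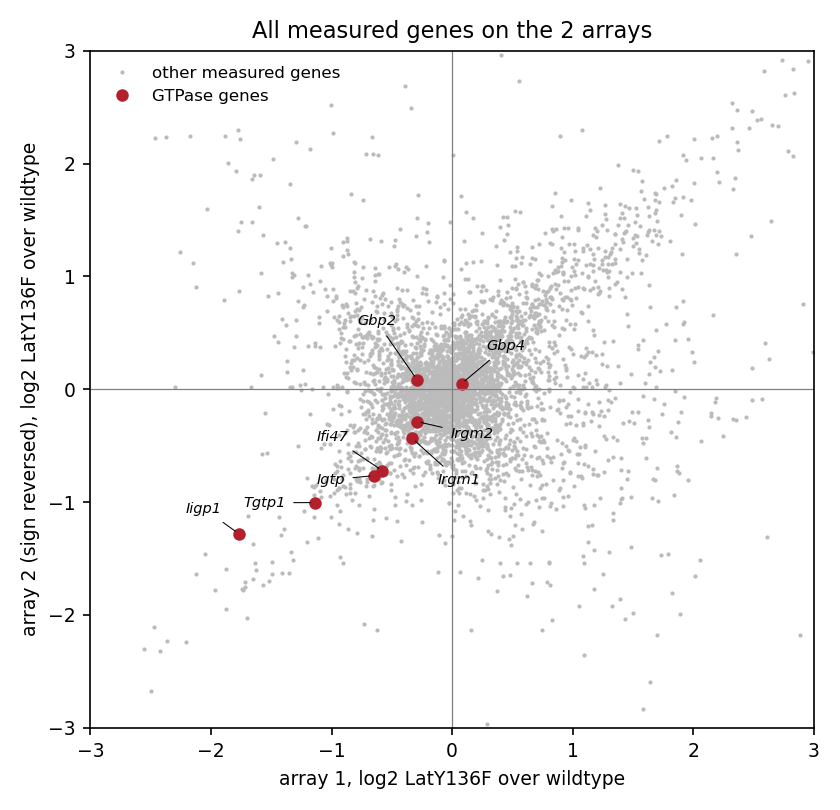
Log2 ratio of LatY136F over wildtype on array 1 (horizontal) and on array 2 after its sign was reversed (vertical) for 4331 genes, in grey, with the GTPase genes in red; 31 genes lie outside the axes. Iigp1, Tgtp1, Igtp and Ifi47 run along the diagonal in the lower left, and Gbp2 and Gbp4 lie in the dense centre.

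Promoter sequences from RefSeq (GRCm38.p6) were matched by symbol for 5 of the 6 members, all but Iigp1, and for the relatives Tgtp2 and Irgm2. Each window holds 300 bases, 250 before the annotated start and 50 from the start on. The stretches below set the promoters of the measured IRG genes with an ISRE core match, and of Tgtp2, which has no ratio of its own here, beside that of Gbp2. They are aligned on the ISRE core and written on the gene's strand, with matches to the ISRE core or GAS letters in capitals. The ISRE core was searched as a pair of GAAA blocks with any 2 bases between them, and GAS as TTCNNNGAA, both on either strand.

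Tgtp1, chr11:48992300-48992349, minus strand: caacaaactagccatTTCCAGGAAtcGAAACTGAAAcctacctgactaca
Tgtp2, chr11:49064259-49064308, minus strand: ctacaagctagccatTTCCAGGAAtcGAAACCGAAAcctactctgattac
Igtp, chr11:58199496-58199545, plus strand: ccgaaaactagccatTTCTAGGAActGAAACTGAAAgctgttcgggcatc
Irgm2, chr11:58214887-58214936, plus strand: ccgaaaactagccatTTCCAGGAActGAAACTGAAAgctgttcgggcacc
Irgm1, chr11:48871421-48871470, minus strand: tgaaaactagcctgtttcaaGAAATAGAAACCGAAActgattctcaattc
Gbp2, chr3:142620578-142620627, plus strand: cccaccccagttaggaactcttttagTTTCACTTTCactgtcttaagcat

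In Tgtp1, Tgtp2, Igtp and Irgm2 a GAS match ended 2 bases before an ISRE core, so the matches do not overlap. The Tgtp1 GAS match spanned bases -88 to -80 from the start and its ISRE core -77 to -68, and the Igtp matches lay at -45 to -37 and at -34 to -25. Irgm1 held 2 overlapping ISRE core matches and no GAS match, and Gbp2 held 1 ISRE core match, on the other strand. In Ifi47 neither set of letters occurred in the window. Without gaps, Igtp and Irgm2 shared 48 of the 50 bases shown, Tgtp1 and Tgtp2 39, Tgtp1 and Igtp 34, and Tgtp1 and Irgm1 24. Tgtp1 and Gbp2 shared 8, but the Gbp2 stretch was not turned, so its core faced the other way. That count therefore does not measure how alike the cores of Tgtp1 and Gbp2 are.

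Of 32851 windows in the table, 3.44% held an ISRE core, 8.30% a GAS match and 0.454% both. Of the 5 members with a window, 4 held an ISRE core and 2, Tgtp1 and Igtp, held both. A match of letters is not a site of binding. Measured genes with both matches numbered 27, and their median log2 ratio was -0.07. Tgtp1 and Igtp had the lowest mean ratios among them, although Vtn and Ifnab were lower than both on array 2 and above 0 on array 1. These 2 genes and Serpinb6a, which had the highest mean at 1.66, were named after their values were seen. Because the ratio of Tgtp1 was known when the set was chosen, its place among these 27 genes supports no test. Of 160 measured genes with an ISRE core, 4 were called lower (Fcrla, Zbtb18, Lats2 and Tgtp1, named after their values were seen) and 11 higher. These are 2.5% and 6.88% of them, against 0.934% lower and 4.11% higher among the measured genes with any window. The lower share includes Tgtp1, whose ratio was known when the set was chosen, so it supports no test. The median of these 160 genes was -0.04, and that of 3427 measured genes with any window was 0.00.

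The whole Tgtp1 window is given as the promoter of a called gene, chr11:48992197-48992496, minus strand, GRCm38.p6, with the GAS and ISRE core matches in capitals.

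Tgtp1 window: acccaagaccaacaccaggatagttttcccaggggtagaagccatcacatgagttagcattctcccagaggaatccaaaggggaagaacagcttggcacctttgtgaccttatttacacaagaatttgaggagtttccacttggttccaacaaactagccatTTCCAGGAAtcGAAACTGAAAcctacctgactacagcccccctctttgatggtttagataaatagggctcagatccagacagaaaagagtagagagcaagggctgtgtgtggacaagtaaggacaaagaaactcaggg

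**Figure D3:**
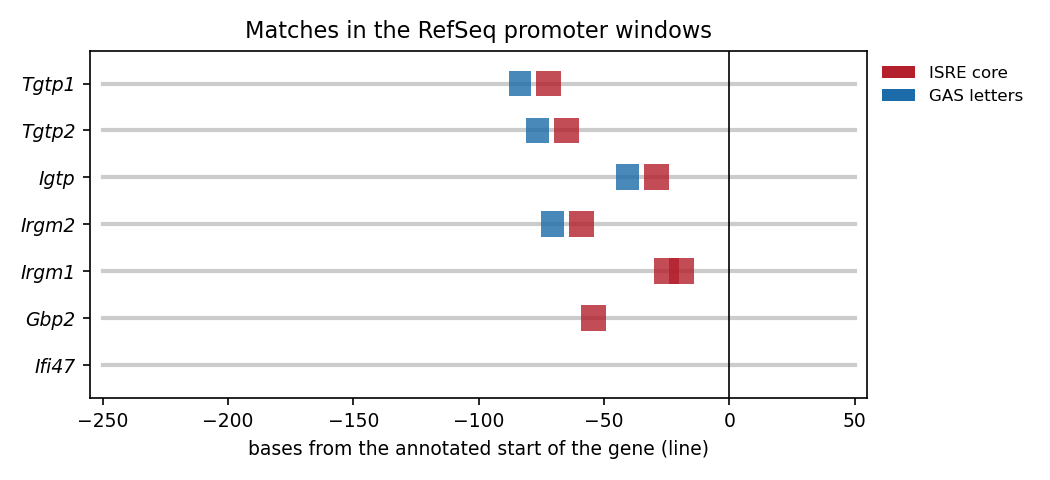
Position of ISRE core matches (red) and GAS matches (blue) in the RefSeq promoter windows, in bases from the annotated start of each gene. A GAS match lies beside an ISRE core in Tgtp1, Tgtp2, Igtp and Irgm2, whereas Irgm1 and Gbp2 hold the ISRE core alone and Ifi47 neither.

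Upstream of these genes, no interferon ligand gene had a direction. Of 12 measured ligand genes, all gave opposite signs on the 2 arrays and none was called. Among all 4331 genes, 1915 had opposite signs or a ratio of 0. Ifng, the type II interferon made by T cells, had -0.07 on array 1 and 0.44 on array 2. The alpha interferon genes are near-identical and can share target RNA. Among receptors and their kinases, 1 of 7 was called, Jak2, a kinase of the interferon gamma receptor and of several cytokine receptors, at 1.16 ± 0.07. Ifngr1, the ligand-binding chain of the interferon gamma receptor, had 0.09 and 0.13 on the arrays, and Ifnar1, a chain of the type I receptor, had -0.25 and 0.08. Jak1 was not measured by a named probe.

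Of 14 STAT and IRF genes, 1 was called higher and none lower. Irf8, a factor of myeloid and B cells, had -1.01 on array 1 and -0.95 on array 2, just short of a call. Irf4, induced by antigen receptors, was the called gene at 1.22 ± 0.18. Irf1, the factor that carries interferon gamma signals to many target genes, had -0.39 and -0.01, and Irf9, part of the ISRE-binding complex, averaged -0.43 ± 0.17. Stat2 had -0.07 and -0.10. Of 11 measured genes listed as inhibitors of cytokine signalling, not only of interferon signalling, 2 were called higher and none lower. These were Cish, an inhibitor induced by STAT5, at 2.68 ± 0.08 and Socs3, induced mainly by STAT3, at 1.53 ± 0.005. Socs1, which blocks the kinases of the interferon gamma receptor, had 0.87 on array 1 and 0.93 on array 2, below the 2-fold threshold, and Socs2 averaged 0.64 ± 0.004. The inhibitors' median was 0.15, with 0.40 on array 1 and 0.16 on array 2.

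Other measured interferon targets did not share one direction. Of 71 listed antiviral interferon-stimulated genes, 18 were measured, while others, Isg15 and Rsad2 among them, had no named probe. None of the 18 was called lower and 1 was called higher. On both arrays 6 were below 0 and 6 above 0, and 6 had opposite signs. Of all 4331 genes, 25.5% were below 0 on both arrays, 1313 were above 0 on both, and 1915 had opposite signs or a ratio of 0. The median of the 18 was -0.03. The called gene was Ifitm2, a membrane protein that blocks virus entry, at 1.62 ± 0.01. Tnfsf10, the death ligand TRAIL, had 0.98 and 0.80. None of 20 genes of class I antigen presentation was called, and their median was 0.11. The class II genes had a median of -0.51: 9 of 10 were below 0 on both arrays, none was called, and H2-Eb1, a class II chain, averaged -0.70 ± 0.04. Among 12 interferon-induced chemokines and effectors, none was called lower and 2 higher, Casp1 (2.11 ± 0.24) and Casp4 (1.54 ± 0.13), both inflammatory caspases. Fas, a death receptor, averaged -0.74 ± 0.10. Side by side, the IRG median of -0.68 was the lowest of the 11 interferon pathway lists, all chosen with earlier results known. The class II list came next at -0.51. Of 15 listed IRG genes, 6 were measured. They include Iigp1 and Tgtp1, whose ratios were known when the set was chosen, so this order supports no test.

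**Figure D4:**
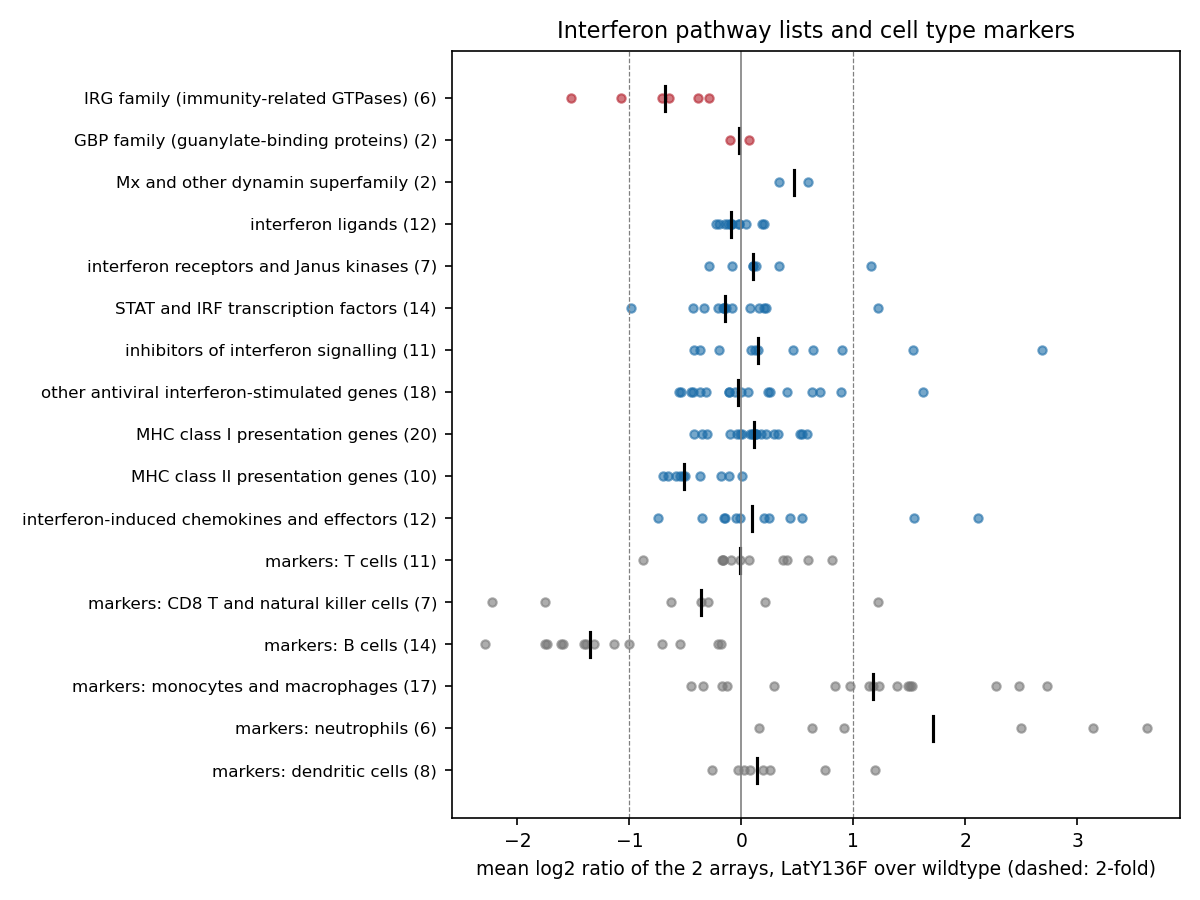
Mean log2 ratio of LatY136F over wildtype for every measured gene of the interferon pathway lists (GTPase families red, others blue) and of cell type marker lists (grey), with the number of genes in brackets and a black bar at each median. The IRG genes all lie below 0, as do the 14 B cell markers, while monocyte, macrophage and neutrophil markers lie mostly above 0.

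Markers of other cell types went in both directions. T cell markers had a median of -0.01 over 11 genes with none called. Of these, 4 were below 0 on both arrays, 5 above 0 on both, and 2 had opposite signs. Cd5 was past 1.5-fold higher on both arrays, at 0.70 and 0.92. Cd247 had the lowest mean at -0.88 ± 0.46, and Cd4 and Cd3e averaged -0.165 and -0.01. Of 14 B cell markers, 9 were called lower and none higher, with a median of -1.35; Cd79b, a chain of the B cell receptor complex, averaged -2.29 ± 0.18 and Cd22, an inhibitory receptor, -1.59 ± 0.05. Of 7 CD8 T cell and natural killer cell markers, 2 were called lower, Cd8b1 (-2.22 ± 0.02) and Klrd1 (-1.75 ± 0.01), and the median was -0.36. In that list Klrg1, a receptor of effector lymphocytes, was past 1.5-fold higher on both arrays at 1.22 ± 0.23, just short of a call, while Klrk1 and Ncr1 had opposite signs. In the other direction, 7 of 17 monocyte and macrophage markers were called higher and none lower, with a median of 1.18, led by the mannose receptor Mrc1 at 2.73 ± 0.11. Of 6 neutrophil markers, 3 were called higher (median 1.71), and of 8 dendritic cell markers, 1 was called higher (median 0.14). The table holds ratios and no levels, so the amount of any marker's RNA in either sample is unknown. The IRG genes can be induced in T cells, B cells and macrophages. The part of cells other than T cells in the GTPase ratios and in the class II ratios was not tested.

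The genes whose ratios on the 2 arrays were nearest to those of a member were listed by Euclidean distance over both log2 ratios. Nearest to Iigp1 were Rps15a, a ribosomal protein gene, at 0.15, the B cell transcription factor gene Spib at 0.17, and Cd22 at 0.30. Nearest to Tgtp1 were the ribosomal protein gene Rps4x at 0.02, Dennd3 at 0.07 and Rasal1 at 0.07. Csnk2a1, Zfp658 and Mrpl47 were each within 0.02 of Gbp2. Within 0.25 lay 2 genes for Iigp1, 19 for Tgtp1 and 567 for Gbp2. With 2 arrays of 1 comparison, this likeness orders the genes by size and direction only.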

How the data were processed

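Two-colour arrays of LatY136F and wildtype CD4+ T cell RNA gave 1 deposited log10 ratio per probe and array, for 8014 probes. For these deposited log10 values, the sources used here do not give the log base, the ratio's direction, the background correction or the normalization. Multiplying by 3.32 turned them into log2 ratios, the sign of array 2 was reversed, and the median of each array was then subtracted. Only the 4654 probes with a single symbol in the platform annotation were named (73 had several, 3287 none), and 4640 of them had a RefSeq gene. Averaging the probes of each gene gave 4331 genes; each member has 1 probe. The labels do not say that the arrays used separate extracts, so the pair was counted as 1 replicate and no test was made. Every member was named, and up to 6 genes per list among those past 1.5-fold in the same direction on both. Other genes were named as markers, defining genes of the pathway or family, or genes near a threshold, after their values were seen. Members, the 11 pathway lists and the 6 marker lists were chosen with earlier results of these data known. Protein sequences were not used here. Python 3.11.15, numpy 2.4.6, pandas 2.3.3 and matplotlib 3.10.9 were used.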

Additional observations from a re-analysis of the deposited data

How the results depend on the processing

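The members' median of -0.68 was -0.70 without centring and between -0.74 and -0.61 on either array alone, and Iigp1 and Tgtp1 were called lower in each of these settings. Tgtp1 was just past the threshold. Leaving out probes at exactly 0 moved the centre of array 2 by 0.004, which put its ratio there at the other side and left 1 member called. A 3-fold threshold called 0 members, and a 1.5-fold threshold 3. Turning the sign of both arrays gave 0 members lower and 2 higher, a median of 0.68, Iigp1 at 1.52 and Tgtp1 at 1.07. Read as log2, the median would be -0.20, with 0 members called, so every fold rests on the log10 reading. Over all genes, 42 were lower and 182 higher. The counts became 127 and 339 at 1.5-fold and 19 and 69 at 3-fold, and 182 and 42 with the sign turned. Read as log2 they became 0 and 13. Single arrays gave 145 to 151 lower and 341 to 408 higher, since a call then needs 1 array. Apart from the turned sign and the log2 reading, 38 of 408 alternatives for the lists counted as moved. A median counted as moved when it shifted by more than the standard deviation between the medians of the 2 arrays. A count did so when it changed by more than 1.5 times, or to or from 0, also where only the fold threshold differed. For single members these settings say nothing about stability, because leaving out an array moves the mean by 0.5 times the gap by construction, each has 1 probe, and centring shifts every gene alike. No paired analysis was possible because the 2 arrays make up a single comparison.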
